A study of Caenorhabditis elegans with 2 samples.

Results

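Nuclear genes of oxidative phosphorylation were examined for binding of EFL-1, an E2F family transcription factor of *Caenorhabditis elegans*. The genes were chosen by symbol alone, as protein-coding genes on nuclear chromosomes whose symbol begins with nuo-, nduf-, sdha-, sdhb-, sdhc-, sdhd-, ucr-, isp-, cyc-, cox- or atp-. This gave 45 genes of the 19973 protein-coding genes on these chromosomes in Ensembl release 115 (WBcel235). Binding was measured by chromatin immunoprecipitation and sequencing (ChIP-seq) in 1 group of 2 biological replicates, both whole young adults of mixed sex. The strain, YL445, is an *unc-119(ed3)* III mutant with the transgene *vrIs81*, in which the *pie-1* promoter drives EFL-1 fused to GFP and FLAG, with the *efl-1* 3′ untranslated region and an *unc-119*(+) marker. One field of the labels gives efl-1 as the antibody and another speaks of eGFP-efl-1. The labels thus leave unclear whether EFL-1 without the tag contributed. The *pie-1* promoter is known to act in the germline, so in tissues that lack the fusion protein an unbound gene and an unmeasured one cannot be told apart.

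Oxidative phosphorylation passes electrons from NADH and succinate along complexes of the inner mitochondrial membrane to oxygen. The protons pumped on the way drive ATP synthase. Complex I accepts electrons from NADH, complex II from succinate, complex III hands them to the small carrier cytochrome c, and complex IV, cytochrome c oxidase, reduces oxygen. A few subunits are encoded in mitochondrial DNA, and the nuclear genome supplies all the others together with the assembly factors. In the worm germline mitochondria are multiplied in large numbers for the oocytes, and the X chromosome is known to be mostly silent there. E2F factors are known above all from genes of the cell cycle.

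Of the 45 genes, 21 had a peak of the authors' optimal list within the promoter window (46.7%), against 12.5% of all protein-coding genes. The window covered 1000 bp before and 200 bp after the 5′ end of each transcript, and a gene with an optimal summit in it is called bound below. The optimal list holds the 2498 peaks that passed the authors' reproducibility threshold, which were the 2498 pooled regions of highest signal. The signal is the authors' value per region, on a scale that is not stated, and it ran from 34.9 to 1564 in that list. Bound members had signals from 35.4 to 485, with a median of 81.5, against a median of 87.6 over all 2503 bound genes. Read depth was unknown. Since there was 1 group, and since the genes were chosen with earlier results of these data known, no test was made, and shares are set beside those of all genes. In replicate 1's own 2498 highest regions, 18 of 45 members had a summit in the window (40%), against 11.7% of all genes. For replicate 2 the count was 19 (42.2%), against 12.3%. Mitochondrial ribosomal protein genes, which serve the same organelle, were bound in 26 of 70 cases (37.1%), and cytoplasmic ribosomal protein genes in 65 of 78 (83.3%).

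**Figure D1:**
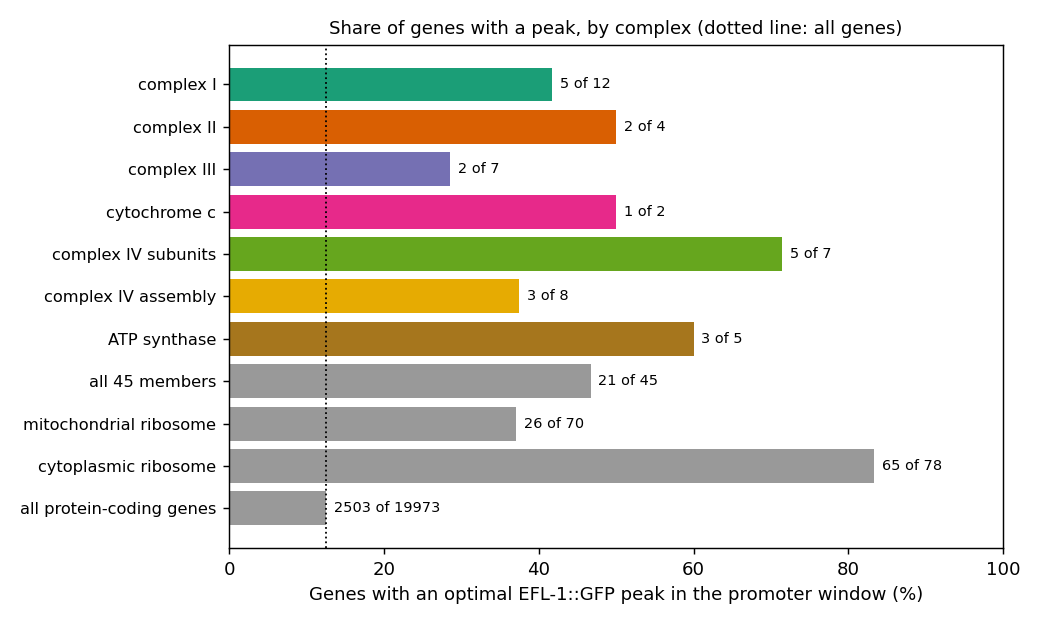
Horizontal bars give the percentage of genes with an optimal EFL-1::GFP peak in the promoter window, for each complex, for all members, for both ribosomal families and for all protein-coding genes, with counts beside the bars and a dotted line at 12.5%. The subunits of complex IV reached 71.4% and the genes of complex III 28.6%.

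Complex IV held the highest peaks. Of 7 genes for its structural subunits, 5 were bound (71.4%), with a median signal of 210. *cox-5B* (WBGene00000371), which encodes an accessory subunit on the matrix side, had the highest signal of all members. Its peak had a signal of 485 in the pooled data, 89.3 in replicate 1 and 398 in replicate 2. It ranked 96 in the pooled list, 195 in replicate 1 and 80 in replicate 2, and its summit lay in intergenic DNA at -59 bp from the 5′ end. *cox-5A* (WBGene00012553), which encodes the neighbouring matrix subunit, gave a peak that spans 12905060 to 12905330 of chromosome III (ce11). Its signal was 383 pooled, 128 in replicate 1 and 258 in replicate 2, where it ranked 95 and 179. These were the members with the highest signal in both replicates, in opposite order. *cox-6B*, the gene of a subunit that faces the intermembrane space, had 210 pooled, 47.2 in replicate 1 and 167 in replicate 2. *cox-6B* has 2 annotated 5′ ends, far apart, and the summit lay at -157 bp from the downstream one. It therefore fell inside an intron of the longer transcript, and *cox-6B* was not bound when only the outermost 5′ end was used. The summit was nearer to *Y71H2AM.20* on the other strand, at -97 bp, and also lay at -807 bp from *nduc-2*.

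The remaining subunit genes of complex IV lay in the lower part of the list or under it. *cox-6A* had a signal of 46.6, with 11.4 in replicate 1 and 33.7 in replicate 2. *cox-6C* had 35.4, the lowest of all bound members, with 4.25 in replicate 1 at rank 24100 and 30.4 in replicate 2 at rank 2115. The peak of *cox-6C* thus rested on replicate 2. Its summit lay nearer to *grld-1* on the other strand, at -348 bp, than to *cox-6C*, at -452 bp. *cox-4* was not bound, and its highest pooled region had a signal of 26.7. *cox-7C* had no region in its window but 1 of replicate 2, at rank 23718.

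The sequence at these summits was read from the RefSeq copy of WBcel235, whose coordinates are those of ce11. In the 50 bp to either side of a summit, and on either strand, the E2F core was sought as TTCCCGC or TTCGCGC or TTGCCGC or TTGGCGC. The core was found at 2 of 21 members' summits (9.52%), against 593 of 1893 optimal peaks in promoter windows (31.3%). The bound members with a core were *nduf-11* and *sdha-2*. The site of *nduf-11* is shown first, with the core in capitals, on chromosome II at 11345786 to 11345810, minus strand. Its centre lay 8 bp from the summit. Below it stand 25 bp around the summits of the 3 members that came next to *cox-5B* in signal. In these the capital marks the summit base, and no core lay within 50 bp. All 3 are on chromosome III, plus strand, at 12905187 to 12905211 for *cox-5A*, 6464459 to 6464483 for *nduf-2.2* and 2786033 to 2786057 for *cox-6B*.
nduf-11: atatgattgTTGGCGCgtttctcat
cox-5A: tcaacagagcggCcgacaagtgacg
nduf-2.2: atgcaaacaggcGcgtgcccgcgta
cox-6B: cattgtggagcgTtttgtgcgtgag

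Bound members with and without the core overlapped in signal. The pair with a core had 194 (*nduf-11*) and 103 (*sdha-2*), and the 19 without one ran from 35.4 to 485, with a median of 76.8. Among all optimal promoter peaks the median was 133 with a core and 69.1 without. The share with a core in cytoplasmic ribosomal protein genes was 6 of 65 bound genes (9.23%), close to that of the members, and in mitochondrial ribosomal protein genes it was 9 of 26 (34.6%). The longer core, with a further T in front, was found at 0 of 21 members' summits, against 17.4% of promoter peaks. TTTGAA or TTCGAA, which resembles the cell cycle homology region, was found at 7 of 21 (33.3%), against 41.2%. GAGAGA was found at 0 of 21, against 11.1%. In windows of 300 bp, from 250 bp upstream of a 5′ end, 4 of 21 bound members (19%) and 3 of 24 unbound members (12.5%) held a core. The share was 27.6% over all bound genes and 11.6% over all genes. GAGAGA lay in these windows in 8 of 21 bound members (38.1%) and 3 of 24 unbound members (12.5%), against 28.3% of all bound genes and 25.4% of all genes. Median GC content in the 101 bp around the summit was 48.5% for members and 43.6% for promoter peaks.

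Of the 12 genes of complex I, 5 were bound (41.7%), with a median signal of 194. Among the 6 nduf genes 4 were bound (66.7%), and among the 6 nuo genes 1 was (16.7%), against 12.5% of all genes. This split by symbol was not part of the plan. The 3 genes of complex I less than 150 bp behind a same-strand gene were all nuo genes, *nuo-2*, *nuo-4* and *nuo-5*. None of these 3 was bound. *nduf-2.2* (WBGene00006463) encodes a core subunit near the ubiquinone site, for which *gas-1* is the better known gene. Its main peak had a signal of 215 pooled, 36.9 in replicate 1 and 180 in replicate 2. That summit lay at -751 bp and also at -692 bp from *dlc-1*, a dynein light chain gene on the other strand. A weaker peak of *nduf-2.2* lay closer, at -130 bp, with a signal of 36.8. *nduf-7*, the gene of an iron-sulfur subunit of the electron path, had 206 pooled, 38.3 in replicate 1 and 159 in replicate 2, at -912 bp. *nduf-11* (WBGene00007192), the gene of a membrane subunit, had 194 pooled, 57.3 in replicate 1 and 137 in replicate 2, at -186 bp. These 3 peaks lay well above those of the other bound genes of complex I.

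*nuo-1* and *nduf-6* were bound near the limit of the list. *nuo-1*, which encodes the flavoprotein that accepts electrons from NADH, had 40.1, with ranks 4754 and 2355 in replicates 1 and 2. Its peak was also that of the ribosomal protein gene *rpl-36.A* on the other strand, at -307 bp from *nuo-1* and -326 bp from *rpl-36.A*. *nduf-6* had 36.9, with 24.7 in replicate 1 at rank 1058 and 12.1 in replicate 2 at rank 6267. It shared its peak with *nars-1*, an asparaginyl-tRNA synthetase gene, and rested mainly on replicate 1. *nduf-9* missed the list with a signal of 32.3 at rank 2720, and *nuo-2* had 25.8 at rank 3447. *nuo-5*, the gene of the largest iron-sulfur subunit, had 9.51 at rank 17892, and *nuo-6* had no pooled region. *nuo-3*, *nuo-4* and *nduf-5* ran from 8.07 to 17.2. A further 19 complex I genes carry the symbols ndua-, ndub-, nduc-, ndus- or nduv- and lie outside the choice. They were looked up after the values of the members were seen, and 6 were bound (31.6%), against 12.5% of all genes. Among these 6 was *nduc-2*, through the peak that it shared with *cox-6B*. Of the 6 bound genes, 5 shared their peak with another gene (83.3%), against 55.1% over all bound genes. The gene itself had the nearest 5′ end in 2 cases (33.3%), against 71.7%.

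**Figure D2:**
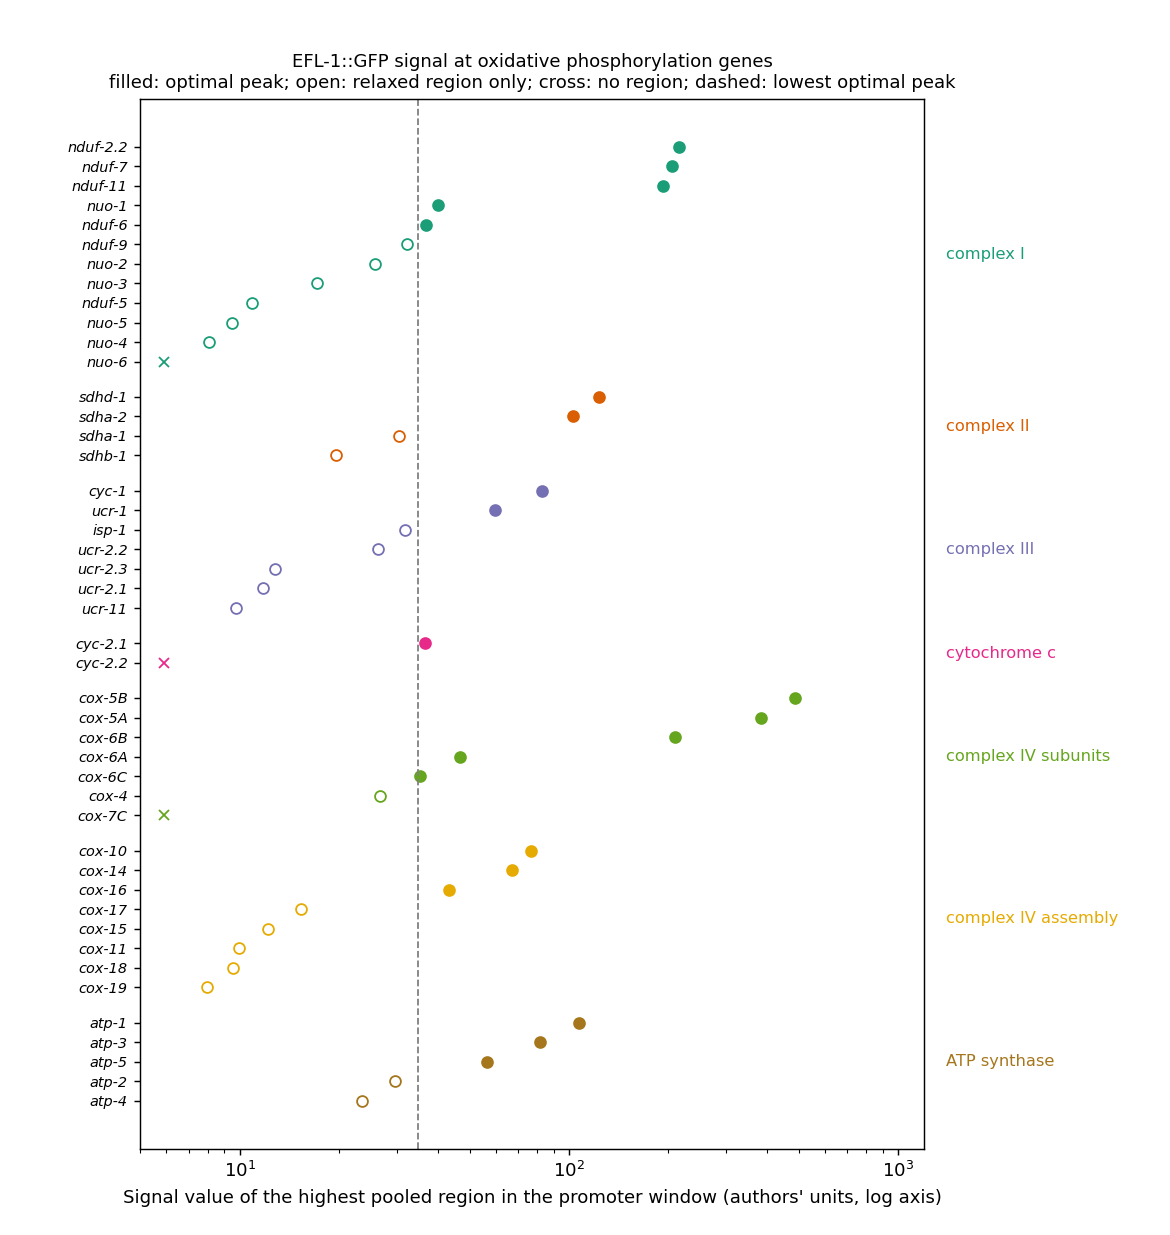
Each point is 1 of the 45 genes, placed by the signal of its highest pooled region in the promoter window (log axis) and grouped by complex, with filled points for genes bound, open points for genes with a region below the optimal list and crosses for genes with none. *cox-5B* and *cox-5A* lie farthest to the right, and *cox-6C* is the filled point nearest to the dashed limit of 34.9.

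In complex II, which is also an enzyme of the citric acid cycle, 2 of 4 genes were bound. *sdha-2*, 1 of a pair of genes for the flavoprotein subunit, had 103 pooled, 22.4 in replicate 1 and 82.0 in replicate 2, with its summit at -131 bp. *sdhd-1*, a membrane anchor gene, had 123 pooled, 36.8 in replicate 1 and 88.2 in replicate 2. This summit lay at -979 bp, inside an intron of *ilkp-1*, and a nearer peak at -162 bp had a signal of 53.7. *sdhb-1*, the iron-sulfur subunit gene, had 19.7 at pooled rank 4758. It ranked 2479 in replicate 1 and 6997 in replicate 2, so it counted as bound in replicate 1's highest regions only.

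In complex III, 2 of 7 genes were bound (28.6%). *cyc-1*, the gene of cytochrome c1, had 82.7 pooled, 13.3 in replicate 1 and 69.6 in replicate 2, at -317 bp. *ucr-1*, a core protein gene, had 59.5 pooled, 19.4 in replicate 1 and 41.0 in replicate 2, at -134 bp. It shared the peak with *ddx-15*, a helicase gene on the other strand. *isp-1*, the gene of the Rieske iron-sulfur protein, had 31.8 at rank 2773, just below the list. *ucr-2.1*, *ucr-2.2*, *ucr-2.3* and *ucr-11* were unbound, with signals from 9.77 to 26.3. Of the cytochrome c genes, *cyc-2.1* had 36.6, with ranks 1651 and 2976 in replicates 1 and 2, and *cyc-2.2* had no region in its window in any list.

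ATP synthase genes were bound in 3 of 5 cases (60%). *atp-1*, which encodes the α subunit of the catalytic head, had 107 pooled, 25.1 in replicate 1 and 81.5 in replicate 2, and its summit lay at 13 bp downstream of the 5′ end. *atp-3*, the gene of the oligomycin sensitivity conferring protein of the stalk, had 81.5 pooled, 28.8 in replicate 1 and 54.0 in replicate 2, at -18 bp. *atp-5*, for the d subunit, had 56.5 pooled, 15.1 in replicate 1 and 38.9 in replicate 2. Its summit lay at -241 bp, and nearer, at -78 bp, to *lmtr-3* on the other strand. The peaks of *atp-1* and *atp-3* were shared with *mcrs-1* and *F27C1.2*, also on the other strand. All 3 peaks were among the highest 2498 regions of both replicates. *atp-2*, whose product is the β subunit and pairs with that of *atp-1*, was unbound, with 29.7 at rank 2956. *atp-4*, for coupling factor 6, had 23.6.

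Of the 8 assembly factor genes of complex IV, 3 were bound, with signals of 76.8 for *cox-10*, 67.2 for *cox-14* and 43.2 for *cox-16*. *cox-10*, which encodes a heme farnesyltransferase, had 28.9 in replicate 1 and 48.6 in replicate 2. *cox-14* had 4.94 in replicate 1 at rank 18406 and 63.4 in replicate 2 at rank 1030, the largest disagreement in its group. Its summit lay nearer to *rde-4*, an RNA interference gene on the other strand, at -121 bp, than to *cox-14*, at -175 bp. The peak of *cox-16* lay 124 bp inside the 5′ end of *syp-2*, a synaptonemal complex gene, and at -368 bp from *cox-16*. The 3 bound genes thus all shared their peaks with a gene on the other strand. The same held for the 3 bound ATP synthase genes, and for 52.1% of all bound genes. *cox-11*, *cox-15*, *cox-17*, *cox-18* and *cox-19* were unbound, with pooled signals from 7.94 to 15.3.

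These 5 unbound assembly genes each followed another gene on the same strand closely, with gaps of 95 to 118 bp. Worm genes are known to be grouped in operons, in which downstream genes are transcribed from the promoter of the first gene, but operons are not annotated in the sources used here. Among all 45 members, 16 had a same-strand gene ending less than 500 bp upstream (35.6%), against 20.1% of all genes. Of these 16 members 4 were bound (25%), against 17 of the other 29 (58.6%). Over all genes the corresponding shares were 10.3% and 13.1%. With a gap of less than 150 bp, a limit chosen after the values were seen, 1 of 11 members was bound (9.09%), against 20 of 34 (58.8%). Over all genes it was 6.82% of 2010 against 13.2% of 17963. The bound member with such a gap was *cyc-2.1*, 110 bp behind *rpl-20*, whose own peak had a signal of 341. Of the 12 unbound members with a close upstream gene, 3 had a bound one (25%), against 20.1% of such genes over the genome. They were *cox-18*, behind *Y55F3AR.2* (348), *ucr-11*, behind *dad-1* (79.5), and *nuo-5*, behind *Y45G12B.2* (75.2).

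Following such chains to their first gene, which was also decided afterwards, gave 6 of 12 with a bound first gene (50%), against 25.7% of such genes over the genome. The added genes were *cox-11*, whose chain began with *lin-54* (318), a gene of the DREAM complex, *cox-15*, with the proteasome gene *rpn-9* (161), and *nuo-4*, with the splicing gene *syf-2* (179). The remaining 6, among them *cox-17*, *cox-19* and *atp-4*, had an unbound first gene. Whether any of these chains is an operon was not tested.

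**Figure D3:**
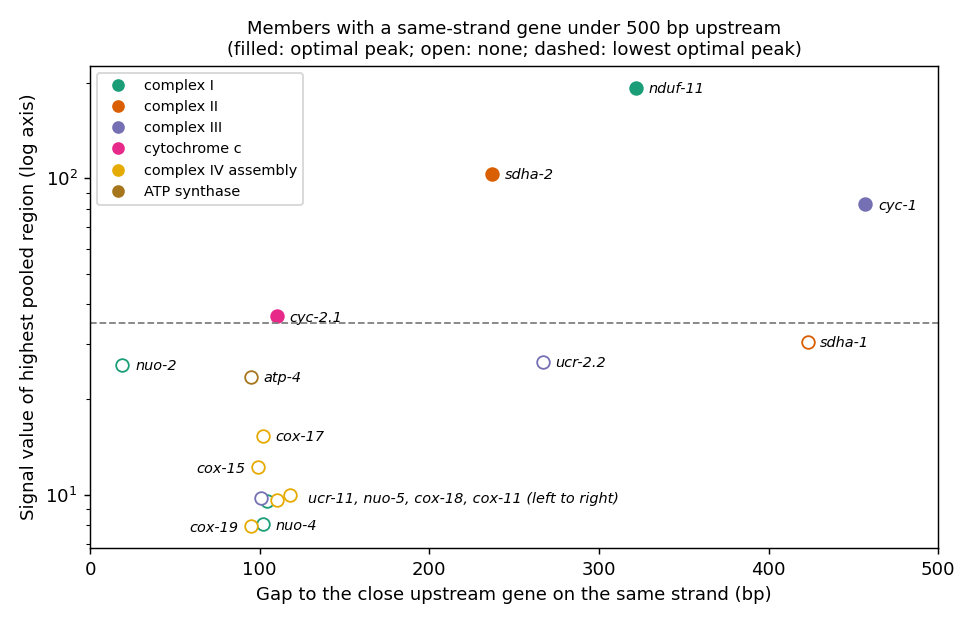
The 16 members with a same-strand gene under 500 bp upstream are placed by that gap (bp) and by the signal of their highest pooled region (log axis), filled where bound. Of the 11 points with a gap under 150 bp, *cyc-2.1* is the one above the dashed limit of 34.9.

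None of the 3 members on the X chromosome was bound, which is near the 2.64% of all genes on this chromosome that were. *sdha-1*, on X, had 30.4 at rank 2891, below the list, while its autosomal copy *sdha-2* was bound. Of the *ucr-2* genes, *ucr-2.1* and *ucr-2.2* lie on X and *ucr-2.3* on chromosome III, and none was bound. Related pairs were then taken from the wider respiratory list. *gas-1*, on X, had 8.82 at rank 20559, against 215 for *nduf-2.2*, whose main peak lay nearer to *dlc-1*. *asb-1*, a gene for ATP synthase subunit b, had 44.7, against 25.2 for *asb-2* on X. *asg-1*, for subunit g, had 56.3, against 24.6 for *asg-2* on X. The summit of *asg-1* lay at -289 bp, and nearer to the mitochondrial ribosomal protein gene *mrps-15*, which shared the peak. *mai-2*, for the inhibitor of ATP synthase, had 36.8, though at rank 23031 in replicate 1, and *mai-1* on X had no pooled region. In the 6 groups with copies on both, 4 of which were put together after the values were seen, 0 of 7 copies on X and 5 of 6 on autosomes were bound. Groups that lie on autosomes alone were split as well, with *cyc-2.1* and *ant-1.1* bound and *cyc-2.2*, *ant-1.2*, *ant-1.3* and *ant-1.4* not. Over all 8 groups 7 of 12 autosomal copies were bound, against 14.1% of all autosomal genes.

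The other genes of the respiratory chain and of its fuel supply were looked up from lists of their own. Of 26 further respiratory genes 8 were bound (30.8%), against 12.5% of all genes. The highest was *hpo-18*, for the ε subunit of ATP synthase, with 346. Its summit lay at -581 bp, and nearer to the replication helicase gene *mcm-7*, whose window also held it. *ant-1.1*, for the carrier that exchanges ADP for ATP, had 216 and ranked 448 and 330 in replicates 1 and 2, while *ant-1.2*, *ant-1.3* and *ant-1.4* had no pooled region. *sco-1*, for a copper chaperone of complex IV, had 89.0, *mev-1*, for a membrane anchor of complex II, 71.8, and *nuaf-1*, for complex I assembly, 65.7. The summits of *mev-1* and *nuaf-1*, at -158 and -129 bp, lay nearer to *jmjd-4* and *bir-2*, which shared these peaks. None of the 8 genes of ubiquinone synthesis, *clk-1* and the coq genes, was bound, and their pooled signals ran from 11.1 to 25.0. The citric acid cycle list was bound in 8 of 15 cases (53.3%), against the same 12.5%. *dld-1*, for dihydrolipoamide dehydrogenase, had 389 and *mdh-2*, for mitochondrial malate dehydrogenase, 312. *sucl-2*, *fum-1*, *aco-2*, *cts-1*, *dlst-1* and *idhg-1* had 37.0 to 82.2, and the peak of *cts-1* was absent from replicate 1. Those of *fum-1* and *idhg-1* ranked 12341 and 6079 there, outside the 2498 highest regions of that replicate. The summit of *aco-2*, at -293 bp, lay nearer to *eef-1B.1*, which shared the peak. Of 4 genes of mitochondrial DNA copying and transcription, *polg-1*, *hmg-5*, *rpom-1* and *mtss-1*, 0 were bound, and *mtss-1* came closest with 33.0 at rank 2632. Over so few genes, 0 of 8 and 0 of 4 cannot be told apart from the 12.5% of all genes.

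Nearly all unbound members had weaker regions in the relaxed lists, which hold 30000 regions each and include background. Any pooled region lay in the window of 42 of 45 members (93.3%), against 44.6% of all genes. For replicate 1 it was 39 members (86.7%) against 45.3%, and for replicate 2 it was 42 (93.3%) against 44.4%. The exceptions in the pooled list were *nuo-6*, *cyc-2.2* and *cox-7C*. In 9 unbound members the highest pooled region lay among the next 2498 below the optimal list (20%), against 5.91% of all genes. Just inside the list were *nduf-6* (36.9), *cyc-2.1* (36.6) and *cox-6C* (35.4), and just outside were *nduf-9* (32.3), *isp-1* (31.8) and *sdha-1* (30.4). Just outside the promoter window lay the peak of *dad-1*, at -1278 bp from *ucr-11*.

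All 21 peaks were found in the relaxed list of each replicate, as were nearly all 2498 optimal peaks (2441 in replicate 1 and 2497 in replicate 2). An overlap of 1 bp was enough for this. With a reciprocal overlap of 50%, 18 of the 21 were found in replicate 1 and 21 in replicate 2. Of the 21 peaks, 14 were among the 2498 highest regions of both replicates (66.7%), against 78.6% over all bound genes. The median signal of the 21 was 24.7 in replicate 1, where it ran from 4.25 to 128. In replicate 2 it was 63.4 and ran from 12.1 to 398. The 7 others were divided. *cox-14*, *cox-6A*, *cox-6C* and *nuo-1* were not among the highest regions of replicate 1, and *nduf-6*, *cyc-2.1* and *cox-16* were not among those of replicate 2. The members with signals of 76.8 or more in the pooled list, 12 in all, were in the upper 50% of optimal peaks.

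**Figure D4:**
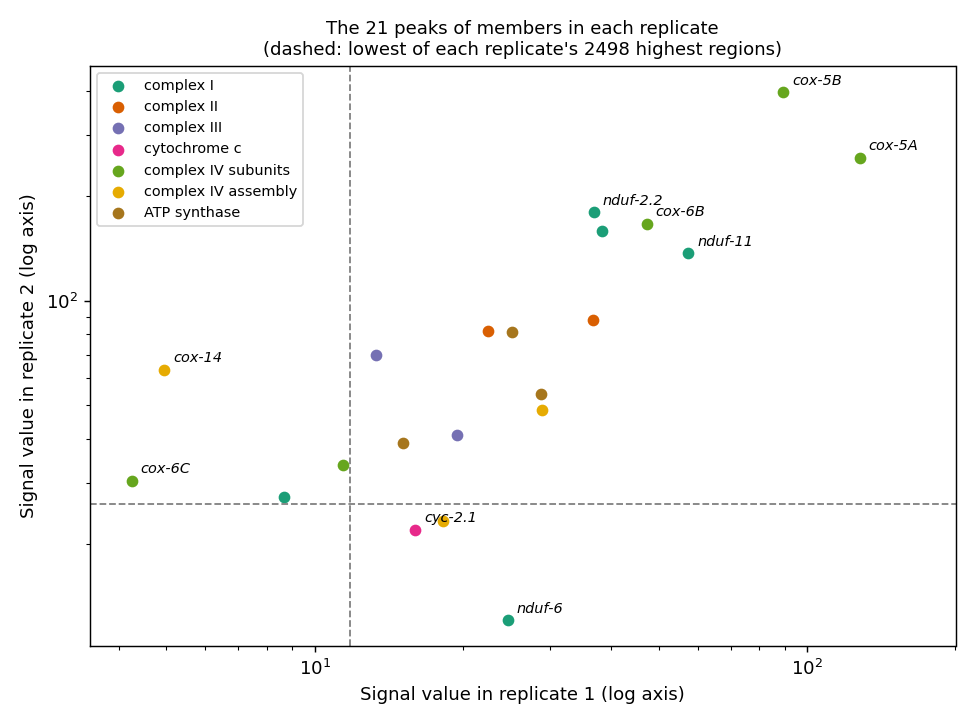
The 21 peaks of bound members are placed by their signal in replicate 1 and replicate 2 (both log axes), coloured by complex, with dashed lines at the lowest of each replicate's 2498 highest regions. *cox-5B* and *cox-5A* lie at the upper right, *cox-14* and *cox-6C* are low in replicate 1, and *nduf-6* is lowest in replicate 2.

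Summits lay close upstream of the 5′ ends in most bound members. The median position was -234 bp, from -979 to 13 bp, against a median of -241 bp over all bound genes. Intergenic DNA held 17 of the 21 summits, untranslated exons 2, introns 2 and coding exons 0. Another gene's window also held the summit in 12 cases (57.1%), always with a gene on the other strand, against 55.1% for any sharing and 52.1% for the other strand over all bound genes. The member had the nearest 5′ end in 15 cases (71.4%), against 71.7%. Sharing and nearness were thus near the values of bound genes at large. By chromosome, 7 of 14 members on I, 4 of 6 on II, 6 of 11 on III, 2 of 6 on IV and 2 of 5 on V were bound. On every autosome these shares were above those of all genes, which ran from 8.27% on V to 21.2% on III.

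**Figure D5:**
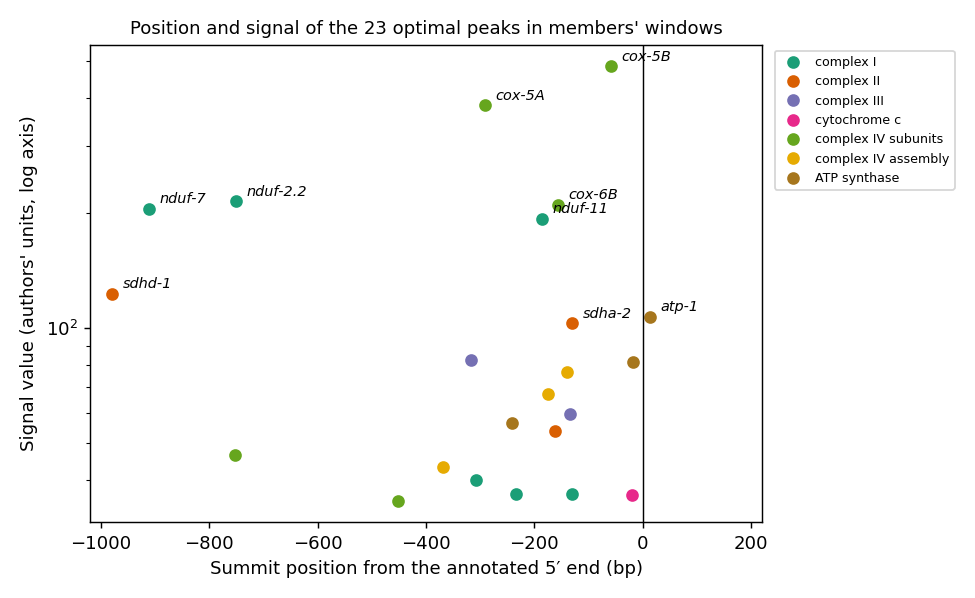
The 23 optimal peaks in the windows of the 21 bound members are placed by the distance of their summit from the 5′ end (bp, negative upstream) and by signal (log axis), coloured by complex. *nduf-7*, *nduf-2.2*, *sdhd-1* and *cox-6A* have summits from -979 to -751 bp.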

How the data were processed

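The deposited files were peak lists in narrowPeak format, of which those for ce11 were used and those for ce10 were not. Per the description deposited with each sample, the authors called relaxed regions, background included, for each replicate and for both pooled, against a control that was not analysed here. An irreproducible discovery rate threshold then gave the optimal list. The signal value in column 7 is the authors' own, as deposited. Which aligner, caller and threshold were used was not given in the sources used here.

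A summit was the region's start plus the offset in column 10, and positions count from 1. Genes came from Ensembl release 115. A gene's value is its window's region of highest signal. For an optimal peak, replicate values are those of the overlapping region (at least 1 bp) of highest signal. Complexes were assigned by symbol. Every member could be named, with genes sharing its peak and bound genes of the lists. The members, lists and comparisons were chosen with earlier results of these data known, and no test was made. Genes that share a peak are not independent of each other. The assignment and motif search were tested on simulated data, in Python 3.11.15. Alternatives were 500 and 2000 bp windows, the nearest gene only, the outermost 5′ end, each replicate alone, stricter and relaxed lists, and other motif and overlap settings.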

Additional observations from a re-analysis of the deposited data

How the results depend on the processing

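The count of 21 bound members lay between 14 and 22 with windows of 500 or 2000 bp, the outermost 5′ end, the nearest gene only and peaks high in both replicates, and in each replicate alone it was 18 and 19. The share of all genes bound moved as well, to 10.3% and 15.3% with the windows of 500 and 2000 bp, 11.8% with the outermost 5′ end, 9.14% with the nearest gene only and 9.86% with peaks high in both replicates. Among the upper 50% of optimal peaks the count was 12 (26.7%, against 7.38% of all genes), with 3 genes of complex I, 1 of complex III, 0 of cytochrome c, 3 subunits and 1 assembly factor of complex IV, and the median signal was 158. With any pooled relaxed region it was 42 (93.3%, against 44.6%), with 11 genes of complex I, 4 of complex II, 7 of complex III, 8 assembly factors and 5 ATP synthase genes, and the median was 33.8. With peaks among the highest regions of both replicates, complex I had 3, cytochrome c 0, complex IV 3 subunits and 1 assembly factor. With the nearest gene only, complex IV had 3 subunits and 1 assembly factor, and ATP synthase had 2 genes. With each replicate alone, cytochrome c genes ranged from 0 to 1, subunits of complex IV from 3 to 5, and the median signal from 26.95 to 69.6, on each replicate's own scale. The longer E2F core was found at 0 summits. With 100 bp to each side of the summit, the E2F core was found for 3 of 21 bound members, against 2 with 50 bp. The settings added after seeing the data gave 1 bound member with a gap under 150 bp and 6 bound first genes of chains. The wider symbol pattern gave 27 of 64 (42.2%, against 12.5% of all genes), in which *cox-6B* and *nduc-2* shared a peak. Of the 6 bound genes that this pattern added, 5 shared their peak with another gene. Causes were not tested. Counts over so few genes per complex do not rank the complexes. No paired analysis was possible because there was 1 group.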
